A study of Mus musculus with 2 samples.

Results

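TGF-beta signalling was followed through 9 genes chosen by name: the ligand Tgfb1, the receptors Tgfbr1, Tgfbr2 and Acvr1b, the signal carriers Smad2, Smad3 and Smad4, and the inhibitors Smad7 and Ski. All 9 were in the RNA matrix, out of 20794 genes in all. They were measured over all cells and over families of cells that share a T cell receptor beta (TRB) chain.

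The cells, called GD2TIF by the authors, were mouse T cells from a Cas9 transgenic donor that were activated and infected with a retrovirus. The virus directed Cas9 against Bcor, a transcriptional corepressor, and Zc3h12a, an RNase that degrades inflammatory messages, and carried the 14g2a chimeric antigen receptor against the ganglioside GD2. Each C57BL/6 host had an intact immune system and received 1000000 cells, and 2 months later 1000000 CD8+Thy1.1+ cells were sorted from spleen for 1 RNA library and 1 TCR library. The number of mice and any pooling of mice are not given in the sources used here, every cell analysed carries the same treatment, and no untreated or control T cells were analysed here.

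TGF-beta is secreted in a latent form, and once freed it binds the type II receptor Tgfbr2, which phosphorylates and switches on the type I receptor Tgfbr1. Activin uses a parallel type I receptor, Acvr1b, and both type I receptors phosphorylate Smad2 and Smad3, which join the common partner Smad4 and act on genes in the nucleus. In T cells the pathway is known for restraining activation and effector differentiation and for inducing CD103, the integrin encoded by Itgae, in CD8 T cells that settle in tissues.

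Levels are given as CPM, the unique molecular identifiers (UMIs) of a gene per 1000000 UMIs of the same cells. Each UMI stands for 1 captured transcript, so levels are not scaled by gene length, and capture can differ between genes. The kept 10338 cells held 22280465 UMIs, and the median cell had 1922 UMIs and 977 genes detected. Ranges in brackets after a value are 95% intervals for counting error only. With 1 library there are no replicates, so no p-value is given, and the error between mice is unknown. All 10 CD8 T cell markers stood at 100 CPM or more. Cd4 stood at 0.628 CPM, and Foxp3, the myeloid markers Lyz2 and Csf1r and the NK marker Ncr1 at 0.180 CPM each; the highest of the same lists were Zbtb7b of the CD4 list at 21.7 CPM, Cd68 of the myeloid list at 11.7 CPM and Klre1 of the NK list at 2.02 CPM. In the B cell list Ighm stood at 561 CPM, Ighd at 105 CPM and Cd22 at 78.9 CPM, and the dendritic cell marker Xcr1 stood at 17.9 CPM, the globin gene Hbb-bs at 55.8 CPM and the endothelial marker Pecam1 at 194 CPM. The targeted genes were read at 171 CPM for Bcor and 47.4 CPM for Zc3h12a, which does not check the editing, since a cut gene can still be transcribed.

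Families were defined as kept cells with exactly 1 productive TRB chain and the same CDR3 nucleotide sequence, the part of the chain made when gene segments are joined. There were 3879 such cells in 430 families, and 12 families of 50 or more cells held 2614 of them. The smallest family used had 50 cells, and the next below had 40. Families are named by their V and J segments as the deposited contig table gives them. The CDR3 sequences of the 5 families that the results below turn on are shown 5′ to 3′, with capitals marking the bases that are shared, counted from either end, with none of the other 11 families.
TRBV15 TRBJ1-1: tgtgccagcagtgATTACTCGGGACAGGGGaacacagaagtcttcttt
TRBV12-2+TRBV13-2 TRBJ2-3: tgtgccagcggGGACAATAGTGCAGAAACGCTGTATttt
TRBV29 TRBJ1-1: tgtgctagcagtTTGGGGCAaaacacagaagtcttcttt
TRBV17 TRBJ2-7: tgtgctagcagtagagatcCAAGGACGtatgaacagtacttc
TRBV14 TRBJ1-4: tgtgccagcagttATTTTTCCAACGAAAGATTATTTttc
These families held 882, 600, 192, 100 and 93 cells in the order printed. The lower-case ends match the start or end of the CDR3 of at least 1 other family.

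Over all cells, Smad4 and Tgfbr2 led and the type I receptors came last. Tgfb1, the ligand, was read at 40.9 CPM (38.3 to 43.6), from 911 UMIs. Tgfbr2, the receptor that binds the ligand, was read at 73.0 CPM (69.5 to 76.6). Tgfbr1, the kinase it switches on, was read at 6.55 CPM (5.53 to 7.71), from 146 UMIs. Acvr1b, the activin type I receptor, was the lowest of the 9 genes, at 4.49 CPM (3.65 to 5.46), from 100 UMIs. Tgfbr2 thus gave 11.1 UMIs per Tgfbr1 UMI (9.40 to 13.3) and 16.3 per Acvr1b UMI (13.3 to 20.1). Tgfbr1 gave 1.46 UMIs per Acvr1b UMI (1.12 to 1.90), an interval above 1 over all cells. The order was not held at every depth: in the shallowest of 3 equal parts of the cells Tgfbr1 was read at 6.74 CPM (4.48 to 9.74) and Acvr1b at 9.15 CPM (6.47 to 12.6).

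Among the signal carriers, Smad4, the common partner, was read at 75.9 CPM (72.4 to 79.6). Smad2, one of the receptor-activated Smads, was read at 49.8 CPM (46.9 to 52.8). Smad3, the other receptor-activated Smad, which unlike the main form of Smad2 binds DNA directly, was read at 32.5 CPM (30.2 to 35.0). The intervals of these Smads did not meet. Smad2 gave 1.53 UMIs per Smad3 UMI (1.39 to 1.68), so it made up 60.5% (58.2 to 62.7) of the UMIs of the pair. The ratio of Smad4 to Tgfbr2 was 1.04 (0.972 to 1.11), an interval that takes in 1, so these neighbours in the order of levels did not differ beyond counting error.

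Of the inhibitors, Smad7, an inhibitory Smad that blocks the receptors and is itself induced by the pathway, was read at 39.4 CPM (36.8 to 42.1). Ski, a corepressor that binds Smads, was read at 22.2 CPM (20.3 to 24.3). Tgfb1 and Smad7 were neighbours in the order, with a ratio of 1.04 (0.945 to 1.14). Of the 9 genes, 7 stood between 10 and 100 CPM, 2 under 10 CPM and none at 100 CPM or more. Of the 20773 genes with a UMI, 1657 stood at 100 CPM or more, 6413 between 10 and 100 CPM and 12703 under 10 CPM.

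**Figure D1:**
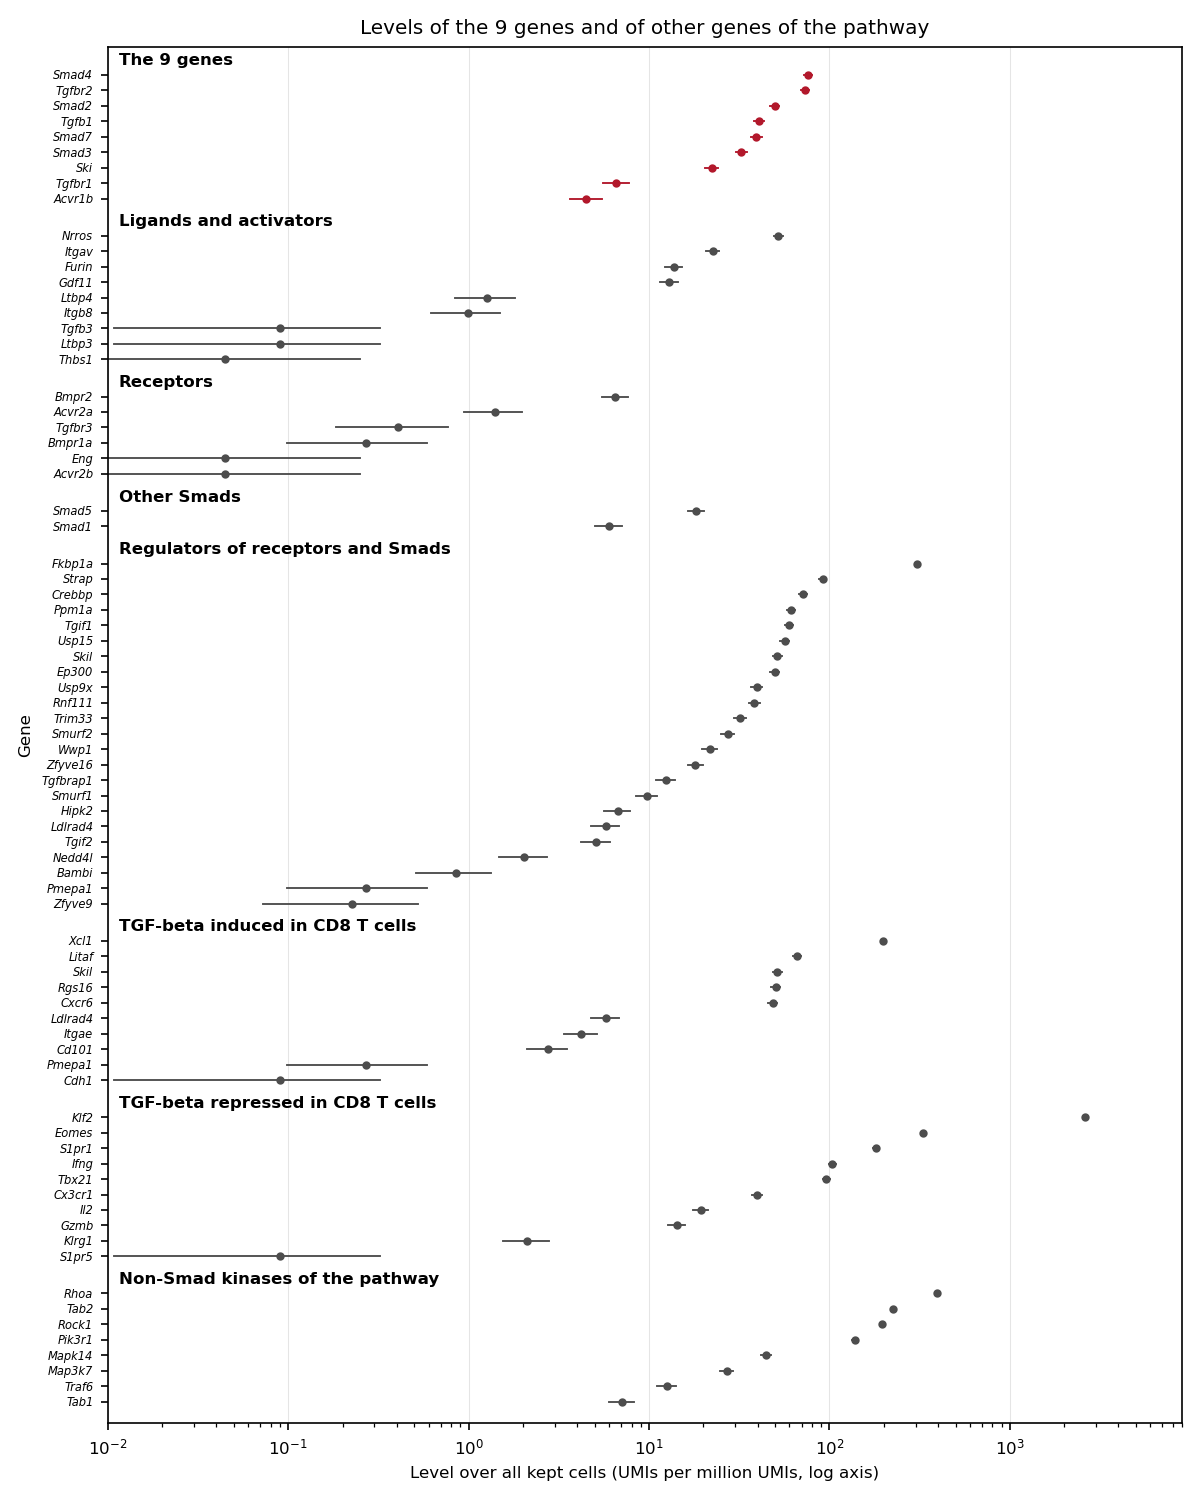
Level of each gene over all kept cells in CPM on a log axis; points are levels, lines are 95% counting intervals, cut at the left edge of the axis. The 9 genes, in red, lie between 4.49 and 75.9 CPM, with Tgfbr1 and Acvr1b apart from the other 7; below them, in grey, are the other genes of the pathway by list, with genes of 2 lists drawn in both.

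The promoters of Tgfbr2, Tgfbr1 and Acvr1b are shown as the 250 bases before each gene start in RefSeq on GRCm38.p6. Tgfbr2 lies on the minus strand of chromosome 9 at chr9:116087695-116175363, Tgfbr1 on the plus strand at chr4:47353222-47414926, and Acvr1b on the plus strand at chr15:101174072-101213684. Capitals mark CCAAT or ATTGG in Tgfbr2, and GGGCGG or CCGCCC, the GC box on either strand, in Tgfbr1 and Acvr1b.
Tgfbr2, chr9:116175364-116175613, minus strand: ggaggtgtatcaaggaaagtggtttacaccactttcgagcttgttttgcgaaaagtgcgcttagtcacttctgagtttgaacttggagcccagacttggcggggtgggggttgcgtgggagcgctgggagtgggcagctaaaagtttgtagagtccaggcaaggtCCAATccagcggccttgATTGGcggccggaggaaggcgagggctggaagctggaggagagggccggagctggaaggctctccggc
Tgfbr1, chr4:47352972-47353221, plus strand: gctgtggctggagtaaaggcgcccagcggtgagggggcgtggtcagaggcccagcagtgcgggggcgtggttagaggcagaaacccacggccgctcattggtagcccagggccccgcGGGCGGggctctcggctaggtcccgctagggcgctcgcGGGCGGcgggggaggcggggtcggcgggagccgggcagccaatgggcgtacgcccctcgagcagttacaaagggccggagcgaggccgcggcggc
Acvr1b, chr15:101173822-101174071, plus strand: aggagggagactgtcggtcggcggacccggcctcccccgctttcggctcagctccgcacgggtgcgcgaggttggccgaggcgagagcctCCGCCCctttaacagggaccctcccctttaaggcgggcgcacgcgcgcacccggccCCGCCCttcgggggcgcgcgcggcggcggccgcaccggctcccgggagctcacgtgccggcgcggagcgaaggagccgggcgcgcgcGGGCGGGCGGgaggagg
The Tgfbr2 window held 2 CCAAT boxes, 1 match to the Smad box CAGAC or GTCTG and 0 GC boxes. The Tgfbr1 window held 2 GC boxes and 2 CCAAT boxes, and that of Acvr1b 4 GC boxes, of which a pair overlap, and 0 CCAAT boxes. Of 32851 mouse promoter windows of this length, 42.2% held a Smad box, 32.7% a GC box and 33.8% a CCAAT box. GC content was 58.4% for Tgfbr2, 74.8% for Tgfbr1 and 78.8% for Acvr1b, against a median of 52.4% over all windows. Genes with higher levels than Tgfbr1 and Acvr1b also had GC-rich windows. GC content was 75.2% for Tgfb1 with 5 GC boxes, 69.2% for Smad3 with 2 and 87.6% for Ski with 5. These are matches of letters and show no binding, and a link between promoter and level was not tested.

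Most cells gave no UMI of a given gene. A UMI was found in 7.72% of cells for Tgfb1 (7.21 to 8.25), in 1.29% for Tgfbr1 (1.08 to 1.52), in 13.1% for Tgfbr2 (12.5 to 13.8) and in 0.880% for Acvr1b (0.709 to 1.08). The shares were 8.996% for Smad2 (8.45 to 9.56), 6.06% for Smad3 (5.603 to 6.53), 13.4% for Smad4 (12.7 to 14.1), 7.14% for Smad7 (6.65 to 7.65) and 4.23% for Ski (3.85 to 4.63). These shares are set largely by depth: a UMI of at least 1 of the 9 genes was found in 46.1% of cells (45.2 to 47.1), and in 27.6% (26.7 to 28.5) when each of 9456 cells was thinned to 1000 UMIs and 882 shallower cells were left out. After thinning, the share was 6.96% for Smad4, 6.50% for Tgfbr2, 4.46% for Smad2, 3.73% for Tgfb1, 3.69% for Smad7, 3.27% for Smad3, 2.17% for Ski, 0.592% for Tgfbr1 and 0.476% for Acvr1b. The order of the genes was the same as that of the CPM levels.

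Free RNA can leave UMIs in cells that do not make a gene, and no cell type in this sort is known to lack the 9 genes. As a gauge, B cell genes were read in the 3879 cells with exactly 1 TRB chain, a choice that uses no marker gene. A UMI was found in 0.206% (0.0891 to 0.406) of them for Ms4a1 and in 0.180% (0.0726 to 0.371) for Cd79a, against 0.928% (0.651 to 1.28) for Acvr1b and 1.31% (0.980 to 1.73) for Tgfbr1 in the same cells, at a median of 2068 UMIs. Over all kept cells the shares were 0.232% for Ms4a1 and 0.281% for Cd79a. Ighm, another B cell gene, was found in 51.2% of the single-TRB cells, and its level ran from 103 CPM in the TRBV12-1 TRBJ2-4 family to 611 CPM in the TRBV12-2+TRBV13-2 TRBJ2-3 family. The source of the Ighm UMIs, and the part of free RNA in the shares of the 9 genes, was not tested.

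Joint detection of both receptor chains was at the limit of depth. Of 133 cells with a Tgfbr1 UMI, 21 also had a Tgfbr2 UMI, or 15.8% (10.0 to 23.1), against 13.1% (12.4 to 13.8) of the 10205 cells without one. Cells with a Tgfbr1 UMI were deeper, with a median of 2360 against 1916 UMIs. After thinning, 2 of 56 cells with a Tgfbr1 UMI had a Tgfbr2 UMI, or 3.57% (0.435 to 12.3), against 6.52% (6.03 to 7.04). No difference between cells with and without Tgfbr1 was detectable for Tgfbr2 at this depth.

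Levels in CPM also moved with the depth of the cell, with cells split into 3 equal parts at 1611 and 2319 UMIs. Smad4 was read at 93.9 CPM in shallow, 80.8 CPM in middle and 66.6 CPM in deep cells, a ratio of deep to shallow cells of 0.710 (0.627 to 0.804). Tgfbr2 was read at 81.8, 76.8 and 67.6 CPM, with a ratio of 0.826 (0.726 to 0.941). Acvr1b was read at 9.15, 3.61 and 3.31 CPM, with a ratio of 0.362 (0.225 to 0.584). For the other 6 genes the interval of the ratio took in 1, among them Tgfb1 at 1.05 (0.879 to 1.27) and Tgfbr1, read at 6.74, 6.46 and 6.54 CPM, at 0.970 (0.621 to 1.56). Comparisons of groups of cells below are therefore given with the depth of both groups. Families with a call among the 9 genes are given with their median depth, beside 2068 UMIs over single-TRB cells.

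**Figure D2:**
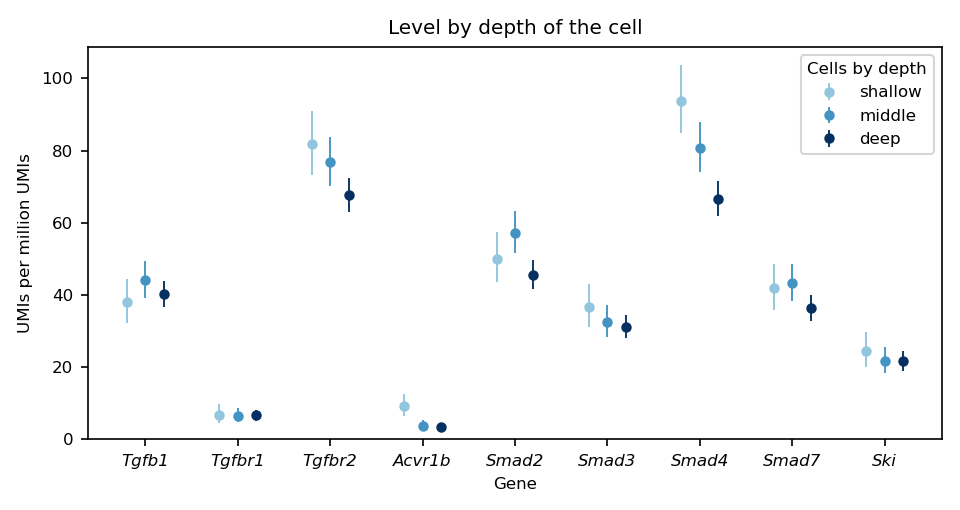
Level of each of the 9 genes in CPM in cells split by depth into equal parts, shallow, middle and deep; points are levels and lines are 95% counting intervals. Smad4, Tgfbr2 and Acvr1b are lower in deep than in shallow cells, and the other 6 genes have ratios whose intervals take in 1.

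Across the 12 families, 4 of the 9 genes had a called family, and the share of pairs called was near that of all genes. Each family was set against all other single-TRB cells, and a gene was called where the ratio of levels was at least 1.5-fold in either direction and both CPM intervals lay apart, if the family was expected to hold at least 5 of its UMIs. Of 108 pairs of a gene and a family, 77 could be read, and 4 were called, 1 higher and 3 lower, or 5.19%. Over all genes 5581 of 79702 pairs were called, or 7.00%, with 3.07% higher and 3.93% lower. The median ratio was 0.969 over the 77 pairs and 0.976 over all genes. The share of calls among the 9 genes was near that background, and the 4 calls are given as values of single pairs.

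Smad3 was higher in the TRBV17 TRBJ2-7 family, the single call in that direction. Its 100 cells held 16 Smad3 UMIs, in 14 cells, or 77.0 CPM (44.0 to 125) against 31.6 CPM (27.9 to 35.5) in other single-TRB cells, a ratio of 2.44 (1.37 to 4.03). Smad2 was not called there, at 67.3 CPM and a ratio of 1.31 (0.711 to 2.22). Of the tested genes 5.84% were called in this family, whose median cell had 1839 UMIs. Smad2 made up 46.7% (28.3 to 65.7) of the Smad2 and Smad3 UMIs of the family, the lowest of 12, and 85.7% (57.2 to 98.2) in the TRBV14 TRBJ1-4 family, the highest. All 12 intervals overlapped, so the families cannot be ordered by this share.

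The TRBV12-2+TRBV13-2 TRBJ2-3 family of 600 cells was lower in Smad2 and in Acvr1b. Smad2 was read there at 36.8 CPM (28.0 to 47.3), from 60 UMIs, against 55.1 CPM (49.8 to 60.9), a ratio of 0.667 (0.499 to 0.876). This lies just past the fold asked for, and the call was lost with families built on the TRB chain of most UMIs (0.677) and without cells that had 2 markers of another type (0.687). Acvr1b gave 1 UMI in the family, or 0.613 CPM against 5.44 CPM, a ratio of 0.113 (0.00278 to 0.665). Its Smad3 ratio was 1.02 (0.742 to 1.37) and its Smad4 ratio 1.12 (0.918 to 1.37). The family was among the deeper ones, with a median of 2529.5 UMIs per cell, and 9.37% of tested genes were called in it.

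Ski was lower in the TRBV29 TRBJ1-1 family. Its 192 cells held 2 Ski UMIs where 9.56 were expected, or 4.38 CPM (0.530 to 15.8) against 21.8 CPM (18.8 to 25.2), a ratio of 0.201 (0.0241 to 0.735). Of the other genes, 7 gave ratios between 0.876 for Smad4 and 1.46 for Tgfbr1, and Acvr1b had 0 UMIs where 2.08 were expected. In this family 5.14% of tested genes were called, and the median cell had 2153 UMIs.

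Acvr1b in the TRBV14 TRBJ1-4 family stood outside the rule, since only 1.01 UMIs were expected, and it was singled out after its values were seen. The 93 cells held 8 Acvr1b UMIs, in 6 cells with 1404 to 3235 UMIs each, and no cell held more than 2. The level was 36.0 CPM (15.5 to 70.9) against 3.73 CPM (2.55 to 5.27), a ratio of 9.64 (3.84 to 21.4). The family held 2.53% of the UMIs of single-TRB cells and 20% of their Acvr1b UMIs, and 6.45% (2.40 to 13.5) of its cells had one, against 30 of 3786 others, or 0.792%. Median depths were 2164 and 2062 UMIs, and the family was not compared with other cells of equal depth. Of 2393 genes expected at 0.5 to 2 UMIs in this family, 1.46% were higher by the same fold with intervals apart. In the same family Smad3 gave 2 UMIs, a ratio of 0.271 (0.0326 to 0.986) that was not called; it was called lower without cells that had 2 markers of another type (0.143, 0.00360 to 0.801).

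Cells of these families that the single-TRB rule leaves out gave a small second reading. They carried a second TRB chain, or no TRB chain but the main alpha chain of the family, which also occurs in cells of other families. In 59 such cells of the TRBV12-2+TRBV13-2 TRBJ2-3 family, 3 Smad2 UMIs gave a ratio of 0.355 (0.0730 to 1.05), and 0 Acvr1b UMIs allowed a ratio of up to 4.64. For the TRBV29 TRBJ1-1 family, 107 such cells held 2 Ski UMIs, a ratio of 0.411 (0.0494 to 1.51). Of them 43 were placed by the alpha chain alone, which was found in 175 cells of the family and in 325 of other families. Those 43 cells therefore cannot be placed in this family with certainty. In the same 107 cells, 32 Tgfbr2 UMIs gave a ratio of 1.98 (1.34 to 2.83), against 0.969 (0.657 to 1.38) in the family. The CPM intervals, 98.1 to 203 and 47.9 to 98.9, overlapped. For Tgfbr1, 5 UMIs gave a ratio of 3.74 (1.16 to 9.32), against 1.46 (0.383 to 3.98) from 4 UMIs in the family. These ratios are all to other single-TRB cells, and the 107 cells were not compared with the family directly. In 9 cells of the TRBV17 TRBJ2-7 family, 1 Smad3 UMI gave 1.29 (0.0324 to 7.22). In 11 cells of the TRBV14 TRBJ1-4 family there were 0 Acvr1b UMIs, where 1.14 would be expected at the level of the family, so this reading could not tell the high level from that of other cells. The intervals of these Smad2, Acvr1b, Ski and Smad3 ratios all take in 1.

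**Figure D3:**
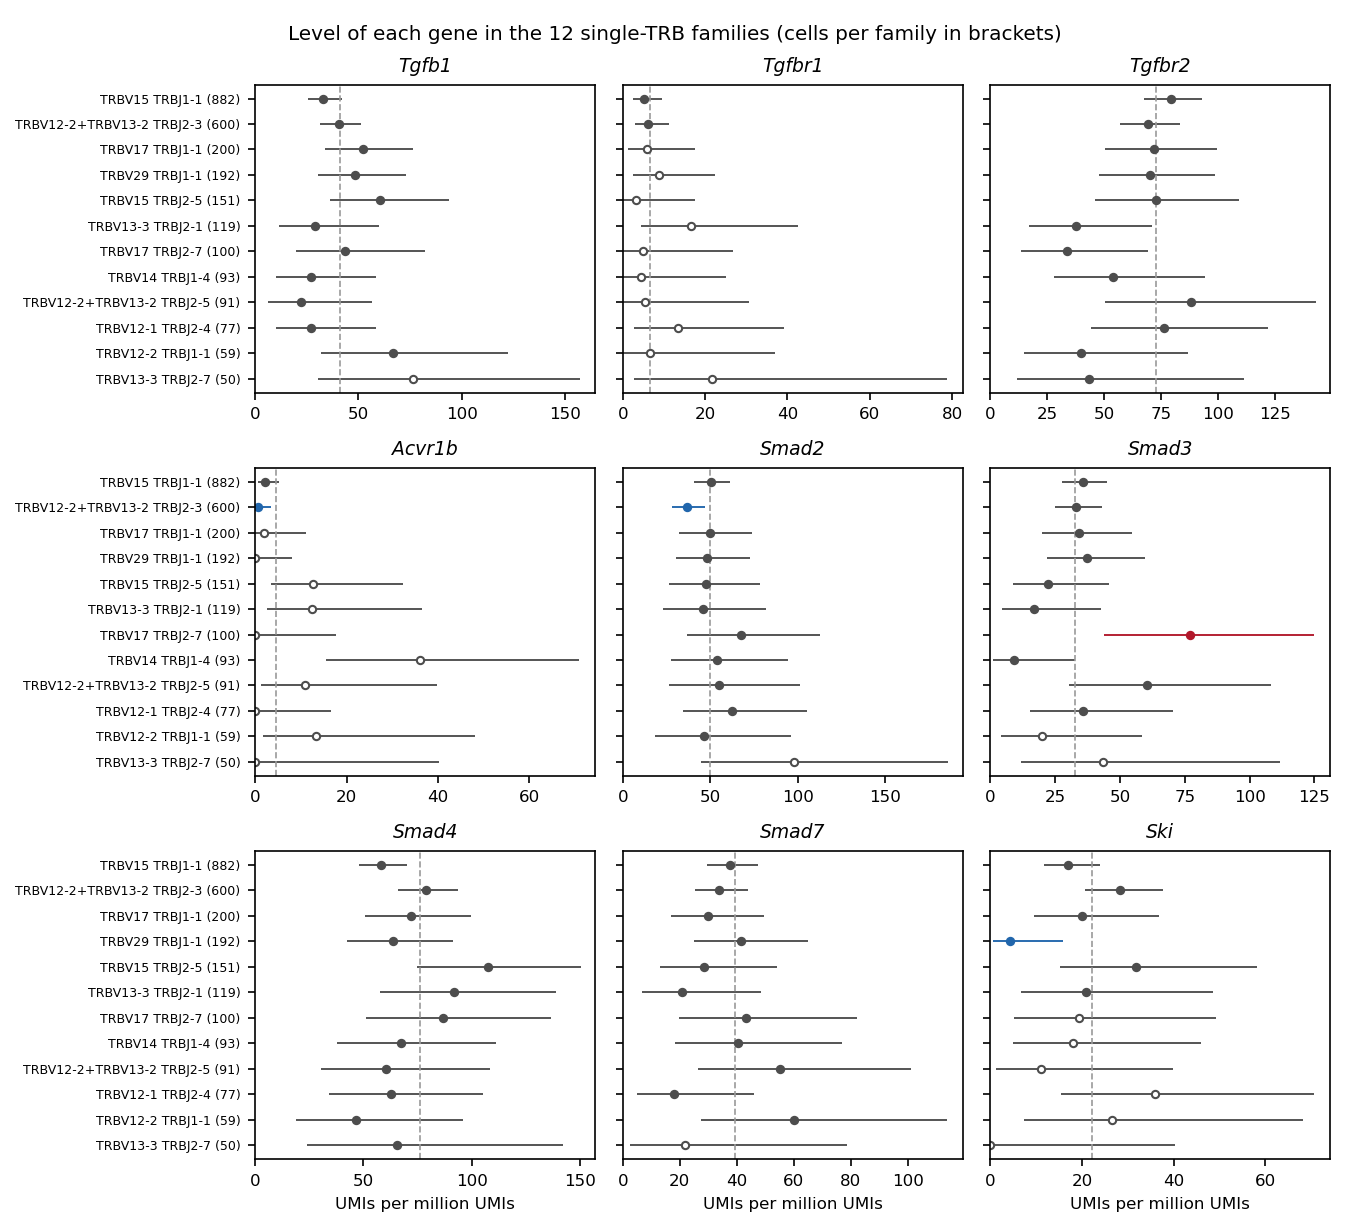
Level of each gene in CPM in each of the 12 families, largest at the top, with cells per family in brackets; points are levels, lines 95% counting intervals, open points pairs expected to hold under 5 UMIs, and the dashed line the level over all cells. Red marks the 1 pair called higher, Smad3 in TRBV17 TRBJ2-7, and blue the 3 called lower; Acvr1b in TRBV14 TRBJ1-4, at 36.0 CPM, is an open point.

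By role, the ligand Tgfb1 ran from 22.0 CPM in TRBV12-2+TRBV13-2 TRBJ2-5 to 76.2 CPM in TRBV13-3 TRBJ2-7, with a median of 41.9 CPM. Tgfbr2 ran from 33.7 CPM in TRBV17 TRBJ2-7, a ratio of 0.460 (0.184 to 0.954) with overlapping CPM intervals, to 88.0 CPM in TRBV12-2+TRBV13-2 TRBJ2-5. With each cell given its TRB of most UMIs, Tgfbr2 was called lower in TRBV17 TRBJ2-7 (0.446, 0.178 to 0.923). The Tgfbr2 ratio was 0.512 (0.233 to 0.979) in TRBV13-3 TRBJ2-1, not called. Tgfbr1 could be read in 2 families and ran from 3.17 to 21.8 CPM. It had at least 1 UMI in every family, while Acvr1b was at 0 UMIs in 4 of 12.

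Smad4 ran from 46.6 CPM in TRBV12-2 TRBJ1-1 to 108 CPM in TRBV15 TRBJ2-5, where the ratio of 1.53 (1.05 to 2.15) was not called. Smad4 was called higher there (1.60, 1.10 to 2.26) with ribosomal protein, mitochondrial, T cell receptor, immunoglobulin, Gm42418 and Malat1 genes left out of the total. The TRBV15 TRBJ2-5 family had a median of 1797 UMIs per cell, against 2068 over single-TRB cells. In the largest family, TRBV15 TRBJ1-1, Smad4 was read at 58.3 CPM against 75.8 CPM, a ratio of 0.768 (0.621 to 0.943), and Tgfb1 at 33.0 against 43.8 CPM, a ratio of 0.754 (0.567 to 0.991). Neither reached the fold asked for, and no gene of the 9 was called in that family, where 7.77% of tested genes were. Smad7 ran from 17.9 CPM in TRBV12-1 TRBJ2-4 to 59.9 CPM in TRBV12-2 TRBJ1-1. Ski ran from 0 UMIs in TRBV13-3 TRBJ2-7, where 1.92 were expected, to 35.9 CPM in TRBV12-1 TRBJ2-4. For none of the 9 genes did any neighbouring families in the order of levels have intervals apart.

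Spread beyond counting error was estimated as a coefficient of variation over the 12 families. It was 27.6% for Ski and 27.2% for Smad3, 18.8% for Tgfb1, 12.4% for Smad4, 10.4% for Tgfbr2, 7.49% for Smad2 and 0% for Smad7. Over 8098 genes of at least the same expected count the median was 15.7%, and 20.2% of genes were at 0%. Ski, Smad3 and Tgfb1 were above that median, the other 4 readable genes below it. These estimates carry no interval, and the sides were not stable. With families of 30 or more cells, Smad4 (29.6%) and Smad2 (25.2%) were also above the median, which was then 17.1%. Without the largest family Smad4 was at 0%, and Tgfb1, at 15.5%, was under the median of 16.3%. Tgfbr1 and Acvr1b had too few UMIs to be read. The rule for naming genes whose levels follow one of the 9 over families asked for 10 expected UMIs in the smallest family, which none of the 9 reached, so no such gene is named.

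Large and small families were compared next, with 2614 cells of the 12 families against 397 cells of families of 1 or 2 cells. Of 8 genes that could be read 0 were called, where 3.94% of all tested genes were. Smad3 was read at 34.4 CPM (29.9 to 39.4) in large and 22.5 CPM (13.3 to 35.5) in small families, a ratio of 1.53 (0.946 to 2.64). Tgfb1 was read at 39.9 and 53.6 CPM, a ratio of 0.744 (0.537 to 1.05). Smad2, Smad4 and Ski had ratios of 0.991 (0.708 to 1.42), 0.991 (0.750 to 1.33) and 0.980 (0.588 to 1.73). Median depths were 2160 and 1886 UMIs.

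In cells with effector genes, Tgfb1 was the single call, a share of the readable genes near that of all genes. A group of 149 cells had a UMI of at least 2 of Gzma, Ccl3, Ccl4 and Cxcr6, a granzyme, a pair of chemokines and a chemokine receptor, and 9548 cells had none; 641 cells with exactly 1 lay between. Tgfb1 was read at 67.4 CPM (44.1 to 98.8) from 26 UMIs against 40.5 CPM (37.8 to 43.4), a ratio of 1.66 (1.08 to 2.46). This was 1 call among 7 genes that could be read, where 13.0% of all tested genes were called. The call was lost with 3 of the 4 markers asked for (65 cells, ratio 1.20, 0.516 to 2.37). It was also lost with ribosomal protein, mitochondrial, T cell receptor, immunoglobulin, Gm42418 and Malat1 genes left out of the total (1.55, 1.01 to 2.29). Tgfbr2 had a ratio of 1.14 (0.780 to 1.62), Smad4 of 0.942 (0.624 to 1.37), and Ski of 0.458 (0.124 to 1.18) from 4 UMIs. Median depths were 2070 and 1900 UMIs, and the group is a range cut from marker UMIs, not a cell type.

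Tcf7 encodes the transcription factor of stem-like and memory T cells, and 3657 cells with 2 or more Tcf7 UMIs were set against 4142 with none. Of the 9 genes 0 were called, where 4.55% of all tested genes were. Tgfbr2 was read at 67.9 against 79.7 CPM, a ratio of 0.852 (0.762 to 0.954). Ski was read at 23.9 against 19.0 CPM, a ratio of 1.26 (1.02 to 1.56), and Smad3 at 29.7 against 35.5 CPM, a ratio of 0.837 (0.706 to 0.992). Cells with Tcf7 were deeper, with medians of 2314 and 1692 UMIs. In deep cells alone, those above 2319 UMIs, the Tgfbr2 ratio was 0.890 (0.751 to 1.06), that of Ski 1.26 (0.916 to 1.76) and that of Smad3 0.880 (0.682 to 1.14), intervals that take in 1. Smad4, with a ratio of 1.06 (0.949 to 1.18) in all cells, had one of 1.23 (1.02 to 1.48) in deep cells, not called.

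Itgae, the CD103 gene that TGF-beta induces in CD8 T cells, was rare, at 4.17 CPM (3.37 to 5.11), with a UMI in 77 cells. In those cells, set against the other 10261, 0 of 6 readable genes were called, where 4.25% of all tested genes were. Median depths were 2173 and 1919 UMIs. Tgfbr2 was read at 67.2 against 73.0 CPM, a ratio of 0.921 (0.489 to 1.58). Smad2 had a ratio of 1.67 (0.951 to 2.73) from 16 UMIs, and of 2.02 (1.00 to 3.65) in deep cells alone, and Smad3 of 0.316 (0.0382 to 1.15) from 2. The group held 13 Tgfbr2 UMIs, so differences within these intervals were not detectable at this depth.

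A further 2 groupings were added after values had been seen. Pdcd1 encodes the inhibitory receptor PD-1, and Ski was lower in 1701 cells with 2 or more Pdcd1 UMIs than in 6682 with none. It was read at 13.3 CPM (10.2 to 17.0) from 63 UMIs against 24.4 CPM (21.8 to 27.2), a ratio of 0.544 (0.408 to 0.714). This was the 1 call of 9 genes, where 4.62% of all tested genes were called. Cells with Pdcd1 were deeper, with medians of 2372 and 1780 UMIs, and in deep cells alone the ratio was 0.444 (0.304 to 0.636). In those deep cells Tgfbr1 had a ratio of 0.495 (0.245 to 0.935), not called. Smad3 was at 37.1 against 29.5 CPM, a ratio of 1.25 (1.04 to 1.504), and Smad7 at 34.1 against 41.4 CPM, a ratio of 0.823 (0.687 to 0.983), neither called.

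Gzmk encodes granzyme K, and Acvr1b was lower in 1688 cells with 2 or more Gzmk UMIs than in 6965 with none. It gave 5 UMIs, or 1.12 CPM (0.363 to 2.61), against 5.99 CPM (4.77 to 7.42), a ratio of 0.187 (0.0591 to 0.454). It was the 1 call of 9 genes, where 5.54% of all tested genes were called. Median depths were 2336 and 1798 UMIs, and Acvr1b was itself lower in CPM in deep cells. In deep cells alone the ratio was 0.220 (0.0428 to 0.712). Tgfbr1, the other type I receptor, had a ratio of 1.01 (0.647 to 1.54) in the same cells.

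**Figure D4:**
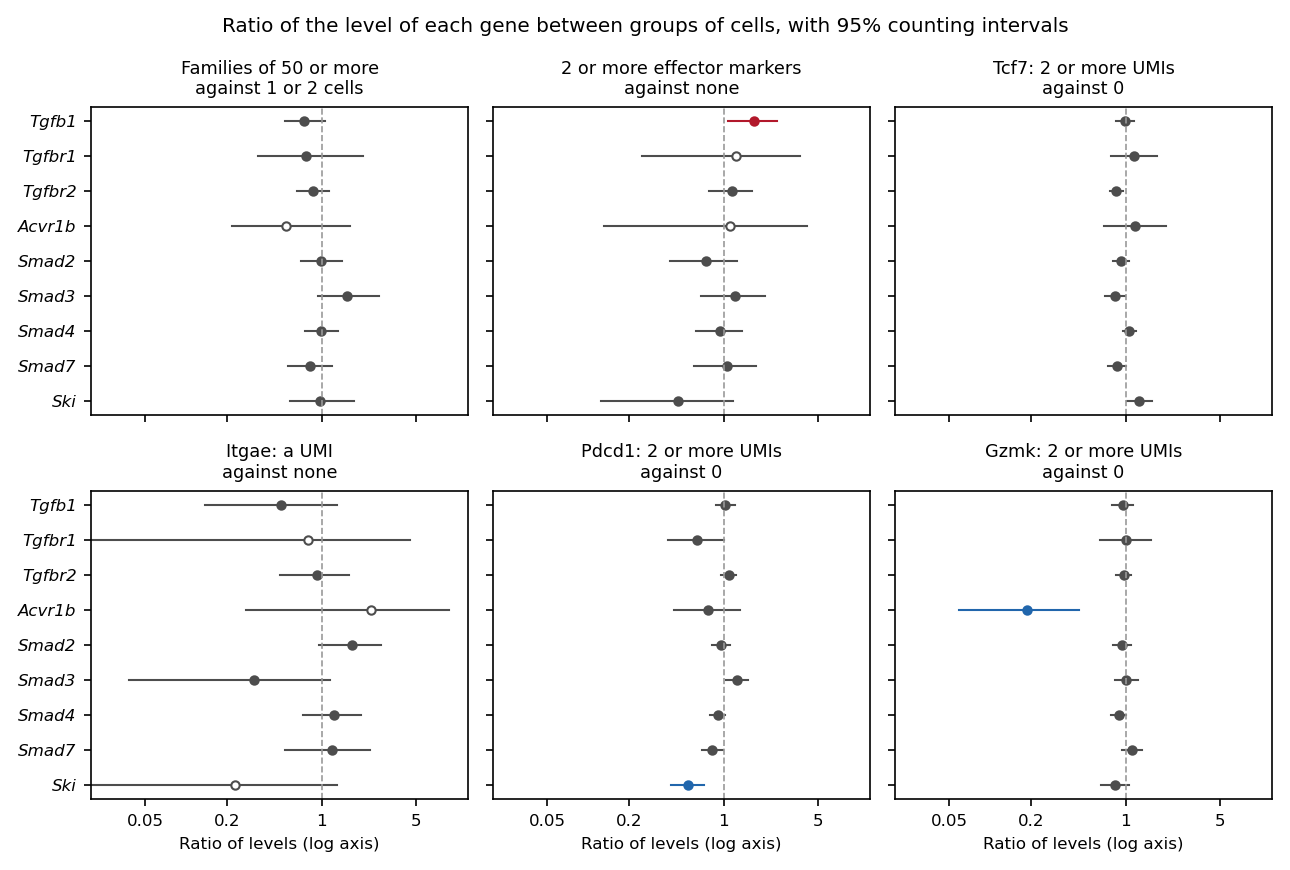
Ratio of the level of each gene between groups of cells on a log axis, for the 6 groupings; points are ratios, lines 95% counting intervals drawn within 0.02 to 12, and open points genes with under 5 expected UMIs. Red marks the call for Tgfb1 in cells with effector markers, and blue those for Ski in Pdcd1 cells and Acvr1b in Gzmk cells.

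The rest of the pathway was read from lists of genes. Of 15 other ligands and activators, 9 were in the matrix and none reached 100 CPM. Nrros, which holds latent TGF-beta at the surface of immune cells, was highest at 52.1 CPM, followed by the integrin chain Itgav at 22.5 CPM, the protease Furin, which cleaves the precursor, at 13.7 CPM, and Gdf11 at 12.9 CPM. Tgfb3 was at 0.0898 CPM, so Tgfb1 was 1 of 2 TGF-beta ligand genes in the matrix and held nearly all of their UMIs. Of 10 other receptors, 6 were in the matrix, all under 10 CPM. Bmpr2, a receptor of bone morphogenetic proteins, was at 6.51 CPM, close to Tgfbr1, the activin receptor Acvr2a at 1.39 CPM and the co-receptor Tgfbr3 at 0.404 CPM. Of 4 other Smads, Smad5 was at 18.2 CPM and Smad1 at 6.01 CPM, both below Smad2 and Smad3.

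Of 24 regulators of receptors and Smads, 23 were in the matrix, 1 of them at 100 CPM or more. That was Fkbp1a, which binds type I receptors, at 304 CPM (297 to 312). Skil, the relative of Ski, was at 51.4 CPM (48.5 to 54.5), above Ski. In the 12 families, 4 pairs of these regulators were called higher and 2 lower of 156, or 3.85%, under the 7.00% of all pairs, with a median ratio of 0.981. The 6 pairs are therefore given as values of single pairs. Skil was lower in TRBV12-2+TRBV13-2 TRBJ2-3, at 33.7 against 57.1 CPM, a ratio of 0.590 (0.437 to 0.783), in which Ski had a ratio of 1.46 (1.02 to 2.06). The coactivator Crebbp was higher in TRBV14 TRBJ1-4, at 135 against 65.1 CPM, a ratio of 2.07 (1.38 to 2.99), and lower in TRBV15 TRBJ2-5, with a ratio of 0.371 (0.159 to 0.735). Zfyve16 (1.86) and Hipk2 (2.87) were higher in TRBV15 TRBJ1-1, and Usp15 (1.59) in TRBV17 TRBJ1-1. Of the ligands and activators 3 of 24 pairs were called, all lower: Nrros in TRBV15 TRBJ1-1, and Gdf11 and Furin in TRBV12-2+TRBV13-2 TRBJ2-3. Of the other Smads 1 of 7 pairs was called, Smad1 with 0 UMIs in TRBV12-2+TRBV13-2 TRBJ2-3, of other receptors 0 of 2, and of non-Smad kinases 1 higher and 4 lower of 73, or 6.85%.

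Genes that TGF-beta is known to induce or repress in CD8 T cells were called in several families. Of 62 pairs of the induced list 5 were called higher and 18 lower, with a median ratio of 0.854, and of 80 pairs of the repressed list 6 higher and 9 lower, with a median ratio of 0.898. Over all genes 7.00% of pairs were called in either direction. Most calls of the induced list came from the chemokine receptor Cxcr6 and the chemokine Xcl1. Cxcr6 was higher in TRBV29 TRBJ1-1, at 147 against 38.5 CPM, a ratio of 3.81 (2.88 to 4.97), and lower in TRBV17 TRBJ2-7, with 1 UMI and a ratio of 0.107 (0.00270 to 0.598). Over the 11 families in which it could be read, Cxcr6 was called higher in 2 and lower in 7, so calls of this gene were common among families. The genes of the list did not move together: in TRBV15 TRBJ1-1, Litaf was higher at 1.68-fold (1.41 to 1.99), while Cxcr6 (0.406) and Xcl1 (0.532) were lower.

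Over all cells the repressed list was the higher one. Klf2, a factor of circulating T cells, was at 2611 CPM, Eomes at 328 CPM, S1pr1, the receptor for exit from tissues, at 180 CPM, and Tbx21 at 96.3 CPM, while Klrg1 was at 2.11 CPM. In the induced list Xcl1 was at 198 CPM, Litaf at 66.0 CPM and Rgs16 at 50.4 CPM, against 4.17 CPM for Itgae and 0.269 CPM for Pmepa1. These levels have no control group beside them. In TRBV12-2+TRBV13-2 TRBJ2-3, Klf2 had a ratio of 1.55 (1.51 to 1.60), S1pr1 of 1.51 (1.35 to 1.69) and Tbx21 of 1.60 (1.36 to 1.88), all called higher. Gzmb, of the same repressed list, was called lower (0.251, 0.0900 to 0.564). Among genes of the repressed list not called there, Eomes (0.907) and Ifng (0.791) had ratios below 1 and Il2 (1.35) above 1. A link of these ratios to the Smad2 and Acvr1b levels of the family was not tested. Of the induced list Rgs16 (0.476, 0.339 to 0.654), Skil and Cxcr6 (0.116, 0.0552 to 0.216) were called lower there. The other readable genes of the induced list were not called and had ratios above 1: Itgae (1.46), Xcl1 (1.29), Ldlrad4 (1.06) and Litaf (1.03). In this family 9.37% of all tested genes were called, and 6.46% were called lower. S1pr1 was called lower in TRBV14 TRBJ1-4, at 58.4 against 187 CPM, a ratio of 0.313 (0.166 to 0.537).

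**Figure D5:**
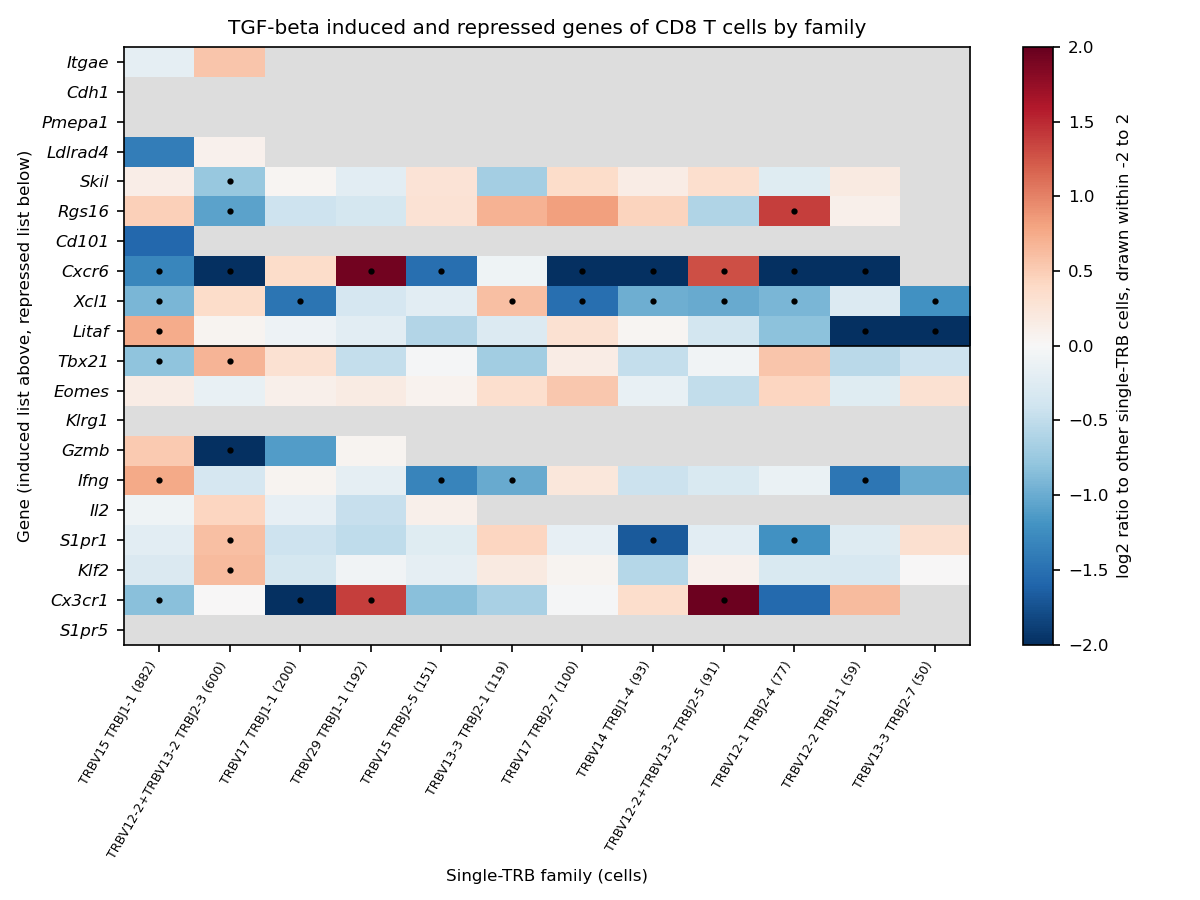
log2 ratio of the level in each family to that in other single-TRB cells, for the TGF-beta induced list (above the line) and the repressed list (below it), with colours ending at a log2 ratio of 2 in either direction; grey marks pairs expected to hold under 5 UMIs and dots mark called pairs. Cxcr6 and Xcl1 carry most of the calls in the induced list, 5 higher and 18 lower in all, and 6 and 9 pairs are called in the repressed list.

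The lists were also read in the groups of cells, each beside the share called over all genes. In cells with effector markers (13.0% of all genes called), Ifng and Cx3cr1 were higher and S1pr1 and Klf2 lower of 7 readable genes of the repressed list. Of 5 of the induced list Xcl1 was lower, and Cxcr6, which helped to define the group, higher. Itgav was higher of 3 ligands and activators and Usp15 of 14 regulators, and 0 of 6 kinases were called.

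In cells with Tcf7 (4.55%), the calls were all lower: Cxcr6 of 8 genes of the induced list, Klrg1 and Gzmb of 9 of the repressed list, and Traf6 of 8 kinases, with 0 calls among 21 regulators and 6 ligands and activators. In cells with Itgae (4.25%), Cxcr6 was higher and Xcl1 lower of 5 genes of the induced list, Trim33 was lower of 12 regulators, and 0 of 6 genes of the repressed list were called. In cells with Pdcd1 (4.62%), where Ski was lower, the calls were all higher: Itgav of 4 ligands and activators, Cxcr6 of 8 genes of the induced list, and Gzmb and Cx3cr1 of 9 of the repressed list, with 0 calls among 20 regulators and 8 kinases. In cells with Gzmk (5.54%), where Acvr1b was lower, Smad1 was lower of 2 other Smads, and Hipk2 higher and Ldlrad4 lower of 20 regulators. Of 8 genes of the induced list in the same cells, Cxcr6 was higher and Xcl1 and again Ldlrad4, which is in both lists, lower, and Klrg1 and Gzmb were higher of 9 of the repressed list. In large against small families (3.94%), Nrros was lower of 4 ligands and activators and Cxcr6 and Xcl1 of 5 genes of the induced list, with 0 calls among 17 regulators, 8 genes of the repressed list and 8 kinases.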

How the data were processed

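Per the labels' protocols, 1 GEXSCOPE RNA library and 1 TCR library came from the same sorted cells. The authors deposited whole-number UMI counts for each gene in each barcode, without normalization, and UMI and read counts for each TCR contig. GRCm38, featureCounts 2.0.1, STAR 2.6.1a and cutadapt 1.17 are listed in the submitters' processing notes, without their roles.

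Of 10387 barcodes, 49 were left out (under 200 genes or 20% or more mitochondrial UMIs). The libraries shared 4590 barcodes. No doublet caller was run. In no family were 247 cells with 2 or more TRB chains, and 401 cells had UMIs of 2 or more markers of the same other cell type. The types were B, myeloid, dendritic, NK, erythroid, platelet, and stromal and endothelial cells. Ighm and Xcr1 were not counted as markers for this.

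UMIs were summed per group of cells. Intervals are exact (Poisson for CPM, conditional binomial for ratios, Clopper-Pearson for shares). With 1 library, no test was run. Named are the 9 genes and genes of the pathway and marker lists; a fixed rule for the genes most like each over families gave none. The 9 genes, the lists and the groupings were chosen with earlier results of these data known. Python 3.11.15, numpy 2.4.6, scipy 1.17.1 and pandas 2.3.3 were used. The call rule was run on simulated counts with Poisson error only. That does not check the rule where cells or families vary beyond counting error. Alternatives covered cell filters, scaling, family definition, fold and reference.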

Additional observations from a re-analysis of the deposited data

How the results depend on the processing

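No paired analysis was possible because the design has no replicates or numbered samples. The share of cells with a UMI of any of the 9 genes was 27.6% after thinning, against 46.1%. With the other families weighted equally as the reference, 8 pairs were called, against 4; the added ones were Acvr1b in TRBV15 TRBJ1-1, Ski in TRBV12-2+TRBV13-2 TRBJ2-3, Smad3 in TRBV14 TRBJ1-4 and Smad4 in TRBV15 TRBJ2-5. Other settings added Tgfbr2 in TRBV17 TRBJ2-7, Smad4 in TRBV15 TRBJ2-5 and Smad3 in TRBV14 TRBJ1-4, 1 in each of 3 settings, as given beside those pairs, and the setting with no minimum expected count added Acvr1b in TRBV14 TRBJ1-4. With families of 30 or more cells, 5 genes spread above the median, against 3. In cells with effector markers, 0 genes were called with 3 of 4 markers, against 1. The count was also 0 with ribosomal protein, mitochondrial, T cell receptor, immunoglobulin, Gm42418 and Malat1 genes left out of the total. The Acvr1b ratio in TRBV14 TRBJ1-4 was 0 in the 11 cells left out by the single-TRB rule, where fewer cells allow up to 33.1. Leaving the ribosomal protein, mitochondrial, T cell receptor, immunoglobulin, Gm42418 and Malat1 genes out of the total raised all 9 levels by 1.38-fold. The other 26 alternatives for counts and shares stayed within 1.5-fold or their interval. The groupings by Pdcd1 and Gzmk, deep cells alone, and leaving out the largest family from groupings by 1 gene were chosen after seeing the data. A call needed 5 expected UMIs, so Tgfbr1 and Acvr1b could be read in 2 of 12 families each.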
